A study of Mus musculus with 21 samples.

Results

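The comparison described here set Nes low mesenchymal cells from mice at a late stage of leukemia against early-stage cells that had taken up no label from the leukemia, called ch-. The members are the libraries whose titles place them in either group, 6 late and 6 early ch-, or 12 of the 21 libraries in the series, and no measured value was used to choose them. Human acute myeloid leukemia lines, HL60 or ML1, had been made to release sLP-mCherry, a soluble and lipid-permeable red fluorescent protein that neighboring cells take up. They were transplanted into unconditioned NSG mice, an immunodeficient strain, aged 8 to 12 weeks at transplant and carrying green fluorescent protein driven by Nestin. Blood cells of human and mouse origin were depleted with beads. Stromal cells described as negative for CD45, Ter119 and CD31, with low Nestin reporter signal, were then sorted. How CD31 was gated is uncertain, as given further below. Total RNA was amplified with random and oligo-dT priming and sequenced. The question is how this stromal compartment differs between a marrow at late leukemic progression and early-stage cells without the label.

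In each group 3 libraries belong to HL60 transplants and 3 to ML1 transplants. Early ch- cells were negative for mCherry, whereas late cells were sorted without use of that marker, so the late group was not divided by contact with leukemia. The 6 early ch+ libraries (mCherry positive) and the 3 ctrl libraries (mice without leukemia) are given only as background. For the late ML1 libraries the treatment field describes mice without engraftment, while the title and time point field say late. They were kept as late, and the calls with the HL60 libraries alone and the ML1 libraries alone, each with 3 libraries per group, are given in parentheses beside the calls of each list. Where a gene's call was lost or its direction turned with a line alone, its difference there follows its value. The Nestin reporter defines the sorted cells and is a transgene, so the endogenous *Nes* gene need not follow it. Each leukemia is 1 cell line, the host lacks lymphocytes, and no sorting or sequencing date is given, so that stage and any such batch cannot be told apart. The labels do not say that each library came from a different mouse, and the p-values therefore measure only the spread between these libraries.

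In bone marrow, perivascular stromal cells that express the leptin receptor produce CXCL12 and stem cell factor, which hold hematopoietic stem cells in their niche. The same population contains precursors of osteoblasts, which secrete and mineralize type I collagen, and of marrow adipocytes. Cartilage cells, pericytes and vessel smooth muscle are further stromal types that can be recovered from crushed bone.

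Expression was compared on the regularized log2 values of the deposited table, with the leukemia line as a term of the model, for the 12980 of 26852 genes whose mean over the 21 libraries reached the log2 of 10. At a Benjamini-Hochberg adjusted p under 0.1, 3300 genes were called different, which is 25.4% of those tested. Of these, 1516 (11.7% of the genes tested) were higher in late and 1784 (13.7%) were lower. For each list below the share of tested members called is given first in the parentheses, to be read against 25.4%. The lists were chosen with earlier results of these data known, so a share above 25.4% is a description and not a test. Among genes with a mean of at least 5 the share called was 29.4%. The filter uses all 21 libraries, so a gene that is low in late can pass it through the early groups: 130 of the lower genes had a late mean below the filter, and 20 of the higher genes had a ch- mean below it. Without the filter 5296 of 26852 genes were called (19.7%). The HL60 libraries alone gave 1851 called genes, 870 higher and 981 lower. The 12 libraries of both groups did not overlap for 1285 genes, or 9.9% of those tested, and 1278 of these were also called. The median size of a called difference was 0.82, and 209 genes differed by at least 2, of which 174 were lower in late. Over all genes tested the median difference was 0.000623. The ctrl mean was nearer to ch- than to late for 1251 of the 1516 higher genes (82.5%) and for 1438 of the 1784 lower genes (80.6%).

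These directions depend on scaling. After the values were taken out of the log2 scale, added up and divided by 1000000, the late libraries summed to between 7.26 and 9.02 (median 7.93) and the ch- libraries to between 12.3 and 14.7 (median 13.7). The groups did not overlap in this total, and the difference of −5.61 had an exact two-sided permutation p of 0.00216, the smallest that 924 arrangements of the libraries can give. In ctrl the totals ran from 11.9 to 14.2. Rescaling every library to the same total moved the median of all genes by 0.77, and 9932 of the 10433 genes then called were higher in late (95.2%), against 45.9% of the called genes without rescaling. The differences below are relative to the authors' normalization, and list medians that turn, and calls lost or gained by the genes named, are given for rescaling. A large part of the total came from *CT010467.1* (chromosome 17, 39846353 to 39848827 on GRCm38), a ribosomal RNA feature that held 16.8% to 26.2% of the total in late and 30.8% to 38.6% in ch-. Without it the totals were still apart, at 5.77 to 6.66 in late and 8.49 to 9.10 in ch-.

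The sorted identity was checked on *Lepr*, which was not used in the sort, and on the genes behind the gate. *Lepr* (ENSMUSG00000057722, chromosome 4, 101717404 to 101815352 on GRCm38), the receptor that marks perivascular stroma, ranged from 12.48 to 13.27 (median 13.03) in early ch- and from 14.29 to 14.81 (median 14.62) in late. The groups did not overlap, and *Lepr* rose by 1.58 (SE 0.11, adjusted p = 1.72e-09), which is 2.98-fold. Its ctrl values were 13.06, 12.24 and 12.50. *Nes* was measured from 7.01 to 7.57 (median 7.41) in early ch- and from 6.66 to 7.87 (median 7.36) in late. Its groups overlapped, and the difference of −0.02 (adjusted p = 0.973, ML1 0.32) changed sign without ch- replicate 527 (0.05), 529 (0.05), late replicate 398 (0.07), 399 (0.08) or 582 (0.02), and after rescaling it was 0.75 and called. *Ptprc*, which encodes the CD45 used for exclusion, ran from 2.67 to 5.92 (median 4.18) in early ch- and from 2.36 to 2.54 (median 2.44) in late. It was lower in late without overlap, at −1.77 (adjusted p = 0.00186, HL60 −0.81), but its late mean lay below the filter, which it passed through the early groups. The extract protocol also mentions cells positive for CD31, so how that marker was gated here is uncertain. *Pecam1*, which encodes CD31, ran from 4.87 to 5.93 (median 5.73) in early ch- and from 4.53 to 5.60 (median 4.65) in late. These groups overlapped, and *Pecam1* was not called (−0.68, adjusted p = 0.109), although it was called without ch- replicate 527 (−0.82), 528 (−0.77) or late replicate 399 (−0.84), and with ML1 alone (−1.28), and turned to 0.09 after rescaling.

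**Figure D1:**
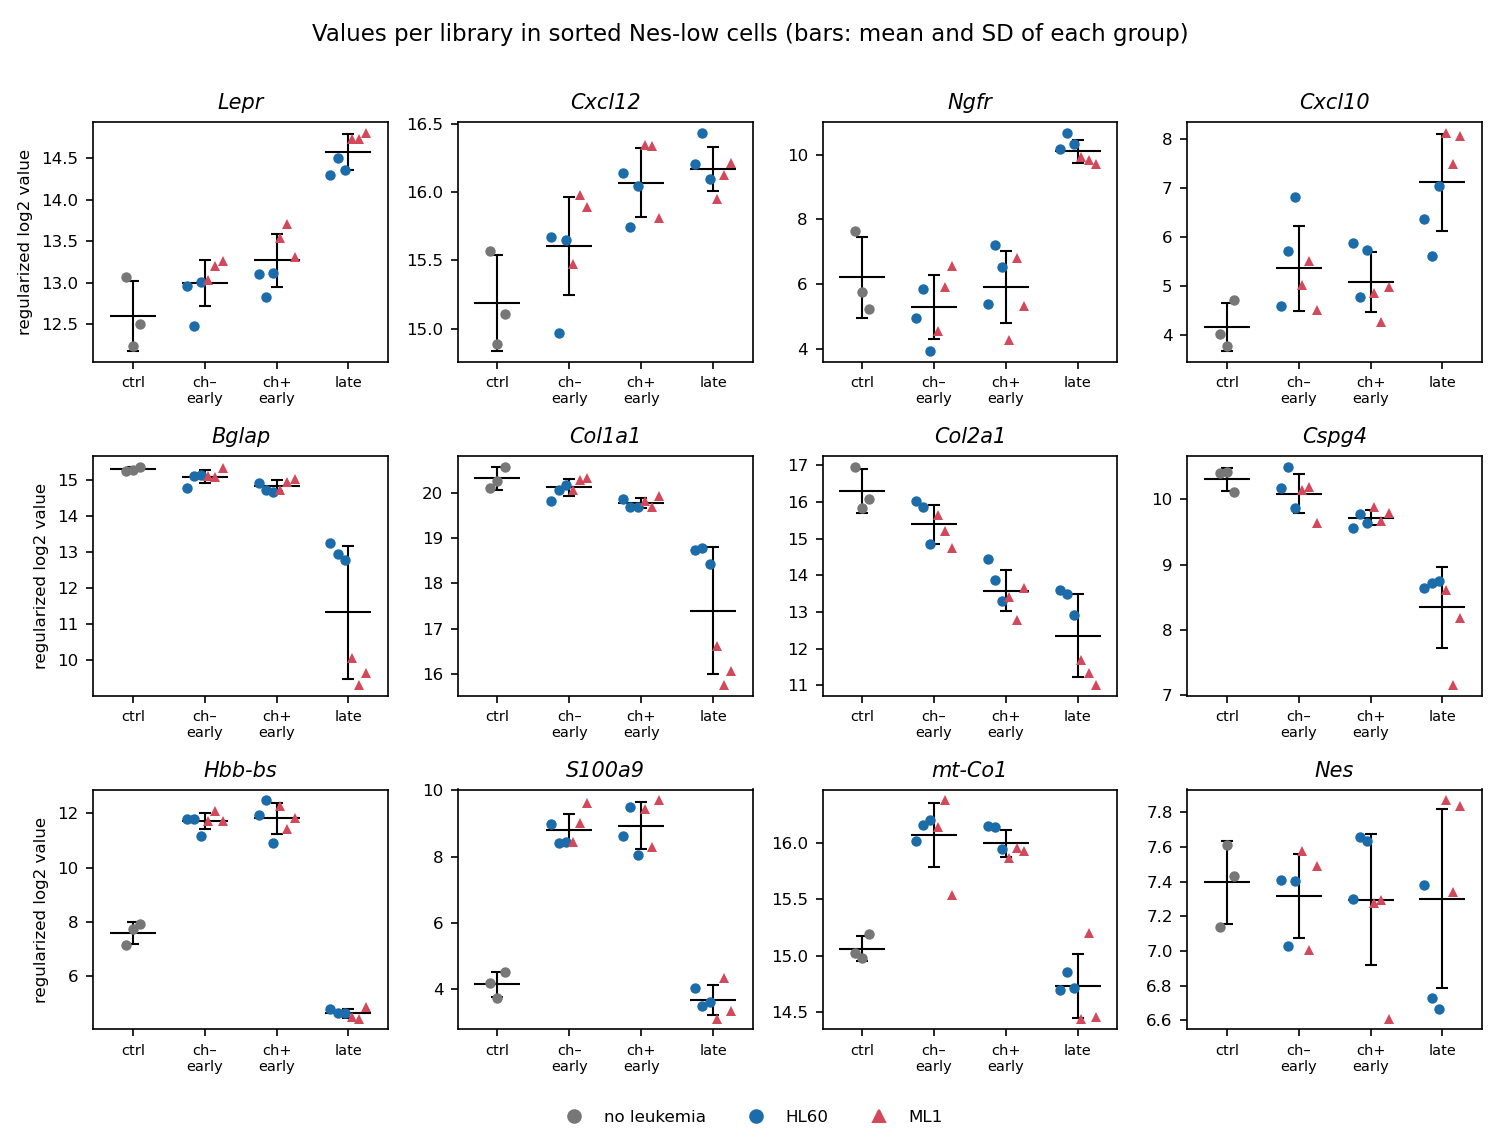
Regularized log2 values of 12 genes in each library of sorted Nes low cells, by group, with circles for HL60, triangles for ML1 and bars for the mean and SD. Late *Lepr* values run from 14.29 to 14.81, above early ch- (12.48 to 13.27), and late *Bglap* values fall below all others with the ML1 libraries lowest; both directions were the same after rescaling to library totals.

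The gene with the largest rise was *Ngfr* (ENSMUSG00000000120, chromosome 11, 95568818 to 95587735 on GRCm38), the low-affinity nerve growth factor receptor, also known as CD271 and used to isolate marrow stromal cells. It ranged from 3.94 to 6.57 (median 5.40) in early ch- and from 9.72 to 10.69 (median 10.05) in late. Every late library exceeded every ch- library, and the difference was 4.82 (SE 0.33, adjusted p = 2.59e-09), or 28.2-fold. The ctrl values were 7.63, 5.74 and 5.24, and the ch+ libraries ran from 4.26 to 7.19. *Ngfr* rose with each leukemia, and the difference between the lines was not called (−1.33, adjusted p = 0.385).

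Among the next genes in size were members of the *Serpina3* protease inhibitor cluster on chromosome 12. *Serpina3h* ranged from 3.51 to 4.85 (median 4.47) in early ch- and from 6.65 to 8.01 (median 7.67) in late. The groups were separate, with a difference of 3.11 (SE 0.27, adjusted p = 6.41e-08). *Serpina3f* (2.46) and *Serpina3i* (2.41) rose as well, but these neighbors are near-identical copies, so reads may have been shared between them. *Ccn5*, a matricellular protein of the CCN family, ranged from 7.38 to 8.32 (median 7.90) in early ch- and from 10.08 to 10.64 (median 10.43) in late. It did not overlap between the groups and rose by 2.56 (SE 0.15, adjusted p = 3.04e-10). *Ifi207*, of the interferon-inducible p200 family, rose by 2.55 (adjusted p = 3.72e-07). The orphan receptor *Gpr176* rose by 2.64 (adjusted p = 2.17e-06). *Six2*, a homeobox factor, rose by 2.47 (adjusted p = 1.37e-05). *C1qtnf5*, a secreted protein of the C1q and TNF family, rose by 2.60 (adjusted p = 1.75e-06), and its ctrl mean lay more than 1 above its ch- mean. *Ugt1a6a*, a glucuronosyltransferase, rose by 2.43 (adjusted p = 5.19e-06). The late and ch- libraries of these genes did not overlap.

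The largest falls were in red cell genes. The beta globin gene *Hbb-bs* (chromosome 7, 103826534 to 103828096 on GRCm38) ranged from 11.17 to 12.08 (median 11.76) in early ch- and from 4.44 to 4.87 (median 4.63) in late. There was no overlap, and it was lower in late, at −7.08 (SE 0.16, adjusted p = 3.11e-17). The ctrl values were 7.15, 7.73 and 7.90, between the early and late libraries, while ch+ ran from 10.90 to 12.47. *Hba-a1* (−6.58), *Hbb-bt* (−6.39) and *Hba-a2* (−5.49) fell too, and each globin pair consists of near-identical copies whose reads are hard to assign. Of 23 tested erythroid genes, 20 were lower in late (87%; HL60 16 lower, ML1 19 lower), with a median of −1.94, and −1.18 after rescaling. Of the 20, 6 had a late mean below the filter, and without the filter 25 of 29 were lower, with a median of −1.26. *Slc4a1*, the red cell anion exchanger, fell by 4.35 (adjusted p = 3.04e-10). *Alas2*, which starts heme synthesis in red cells (−3.18), and *Hemgn* (−3.18) were also lower. Added up, the erythroid genes reached a log2 level of 12.74 to 13.55 in ch- (median 13.23), 12.59 to 13.86 in ch+, 10.39 to 10.90 in ctrl and 9.93 to 10.24 in late (median 10.15). *Hbb-bs* was the most abundant of them in the early groups and *Fech* in ctrl and late, while the erythroid regulator *Gata1* stayed at or below 0.76 in every library.

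Genes of granulocytes and their precursors followed the same grouping. *S100a9*, a calcium-binding protein of neutrophils, ranged from 8.41 to 9.61 (median 8.72) in early ch- and from 3.11 to 4.34 (median 3.56) in late. No late library reached the lowest ch- library, and the difference was −5.16 (SE 0.27, adjusted p = 8.23e-11). In ctrl *S100a9* was 4.19, 3.72 and 4.50, while *Ngp* was 3.56, 3.63 and 7.85 and *Mpo* 3.26, 3.48 and 7.16, so that ctrl replicate 375 lay far above the other ctrl libraries for the latter genes. *Ngp* (−5.03), *Mpo* (−4.91), *S100a8* (−4.82), *Chil3* (−3.67) and *Ltf* (−3.50) encode further neutrophil granule or cytosolic proteins and were lower without overlap. *Itgam* was lower, at −2.37 with overlap. Of 19 tested neutrophil and myeloid genes, 17 were lower (89.5%; HL60 0 higher, 16 lower; ML1 1 higher, 17 lower), with a median of −2.43, and −1.67 after rescaling. Of the 17, 13 had a late mean below the filter, and without the filter 21 of 28 were lower, with a median of −1.74. Their summed log2 level was 10.96 to 12.15 in ch- (median 11.33), 10.72 to 11.97 in ch+, 8.55 to 9.61 in ctrl and 8.14 to 9.05 in late (median 8.68), with *Lyz2* as the most abundant gene in every group. *Lyz2* itself fell by 2.43 (adjusted p = 1.07e-06). *Cd24a*, a surface protein of immature blood and other cells, fell by 4.03 (adjusted p = 2.3e-09). The sort used CD45 and Ter119 to remove such cells. Fewer cells of a type and less RNA per cell cannot be told apart in these libraries, and the part of these genes in the other differences was not tested.

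The lists for other marrow cell types had 6 or fewer tested members. Of 4 tested macrophage genes 0 were called in limma (0%; HL60 0 higher, 0 lower; ML1 1 higher, 0 lower), and 0 had an unadjusted p under 0.05, while 3 were higher after rescaling and 4 of 20 lower without the filter. The list median was 0.02, and 0.79 after rescaling, but −0.26 with HL60, −0.22 with ML1 and −0.21 without the filter. Their summed log2 level was 7.13 to 7.51 in ch- and 6.92 to 7.62 in late, led by *Fcer1g* in ch- and by *Cd14* in late. The defining markers *Adgre1* and *Csf1r* did not exceed 1.14 and 3.69 in any library. The 13 lymphoid genes in the file were all below the filter, and the B and T cell markers *Cd79a* and *Cd3e* stayed at or below 1.54. Of 2 tested megakaryocyte and mast cell genes (50%; HL60 0 lower, ML1 1 lower), the platelet chemokine *Ppbp* was lower (−1.37, HL60 −0.69) with a late mean below the filter, the list median was −0.68 and turned to 0.09 after rescaling, and *Pf4* did not exceed 3.77. The summed level of this list ran from 4.23 to 5.91 in ch- libraries and from 4.04 to 4.60 in late libraries. Of 6 tested osteoclast genes 3 were lower (50%; HL60 2 lower, ML1 2 lower), with a median of −0.37 that turned to 0.40 after rescaling and was 0.10 with HL60 and −0.54 with ML1, and a summed level of 10.45 to 10.88 in ch- against 9.96 to 10.19 in late. *Car2*, carbonic anhydrase of osteoclasts and red cells, was lower, at −1.45 (adjusted p = 8.04e-05), and *Nfatc1*, the most abundant of these genes, also fell (−0.64, ML1 −0.45), though *Nfatc1* turned to 0.12 after rescaling. The remaining call, *Acp5* (−0.86, HL60 0.11), was lost after rescaling and without any 1 of 8 of the 12 libraries (values −0.89 to −0.64). The part of these cells in the result was not tested.

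Skeletal muscle genes were lower in late than in early ch-. The median of ctrl minus ch- for the muscle list was −1.60, so ctrl lay nearer to late. That of ch+ minus ch- was 0.69. *Acta1*, skeletal alpha actin, ranged from 5.09 to 7.23 (median 6.02) in early ch- and from 2.53 to 2.89 (median 2.70) in late. Late and ch- libraries were apart, and the difference was −3.34 (SE 0.31, adjusted p = 1.21e-07). Of 11 tested muscle genes 10 were lower (90.9%; HL60 10 lower, ML1 8 lower), with a median of −1.70, and −0.93 after rescaling. Of these 10, 7 had a late mean below the filter and passed it through the early groups, so the filter bears on this count, and without the filter 16 of 22 were lower, with a median of −1.31. *Ttn* (−2.67), *Tnnt3* (−2.38) and *Mb* (−2.06) encode sarcomere or oxygen-binding proteins of muscle, and *Pax7* (−1.59, ML1 −1.14) is a satellite cell factor. The summed level was 8.82 to 10.08 in ch- (median 9.42) and 7.20 to 7.82 in late (median 7.45), led by *Ttn* and by *Actn3* in these groups, and the fast myosin gene *Myh4* ran up to 5.56 in ch- and 1.00 in late. Schwann cell and neural genes gave 1 higher member, *Ngfr*, and 4 lower members of 10 tested (50%; HL60 2 higher, 3 lower; ML1 1 higher, 1 lower), with a median of −0.56 that turned to 0.21 after rescaling. *Mbp*, of myelin (−1.47), was among the lower ones, and the count of lower members was 2 without ch- replicate 528 or 544. *Map2*, of neuronal microtubules (−0.66, HL60 −0.50, ML1 −0.83), turned to 0.11 after rescaling and was not called without any 1 of 8 of the 12 libraries (values −0.72 to −0.54). The summed neural level was 8.94 to 9.49 in ch-, led by *S100b*, and 10.16 to 11.07 in late, led by *Ngfr*. For the neural list the median of ctrl minus ch- was −0.09 and that of ch+ minus ch- was −1.20. The part of muscle and Schwann cell RNA in the result was not tested.

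Endothelial genes gave 1 higher and 1 lower call of 18 tested (11.1%; HL60 1 higher, 0 lower; ML1 1 higher, 4 lower). *Eng*, a co-receptor for TGF-beta also made by stroma, rose by 0.59 (adjusted p = 0.00249). The lower call was *Stab2* (−0.91, HL60 −0.02), a scavenger receptor of sinusoidal endothelium, which was not called after rescaling or without any 1 of 8 of the 12 libraries (values −0.90 to −0.71). The lower count was 3 without late replicate 397, 2 without ch- replicate 527 or 528 or late replicate 398 and 0 without ch- replicate 529, 543, 544 or 546 or late replicate 581, 582 or 583, and the higher count was 2 without ch- replicate 529. The list median was −0.29, turned to 0.48 after rescaling, and was 0.14 with HL60 and −0.45 with ML1. Its summed level was 9.70 to 10.25 in ch- and 9.84 to 10.44 in late, led by *Eng*, and the tight junction gene *Cldn5* did not exceed 2.91 in any library.

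The stromal niche list holds factors for blood cells such as *Cxcl12*, but also receptors such as *Pdgfrb* and *Lepr* and the transcription factor *Ebf3*. Of its 25 tested genes 18 were higher in late and 4 lower (88%; HL60 16 higher, 1 lower; ML1 11 higher, 5 lower). Their median was 0.61, and 1.38 after rescaling. The list holds genes the study names for these cells and is therefore not independent of it. *Cxcl12*, the chemokine that retains stem cells, ranged from 14.97 to 15.98 (median 15.66) in early ch- and from 15.95 to 16.44 (median 16.17) in late. The groups overlapped only slightly, and *Cxcl12* rose by 0.57 (SE 0.15, adjusted p = 0.0098, ML1 0.32). It made up 0.836% to 1.04% of the summed values in late and 0.235% to 0.469% in ch-. These shares also depend on the sums, which were smaller in late. The ch+ mean of *Cxcl12* was 16.07, near its late mean of 16.17. *Kitl*, stem cell factor, ranged from 9.71 to 10.99 (median 10.70) in early ch- and from 10.61 to 11.27 (median 10.96) in late. These groups overlapped, and the rise of 0.39 (adjusted p = 0.0927, HL60 0.55, ML1 0.23) was not called without ch- replicate 528 (0.23), 543 (0.38), 546 (0.39), late replicate 397 (0.39), 398 (0.29), 582 (0.38) or 583 (0.41). The ch+ mean of *Kitl* was 10.87, near its late mean of 10.96.

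The largest rise in the list was *Pdgfrb*, the receptor for PDGF-BB on perivascular cells, which ranged from 10.63 to 11.47 (median 11.18) in early ch- and from 12.59 to 13.46 (median 12.96) in late. No values overlapped between the groups, and the difference was 1.84 (SE 0.12, adjusted p = 1.04e-09), or 3.57-fold. *Pdgfra*, the other PDGF receptor of stroma, was lower, at −0.33 (adjusted p = 0.0305, HL60 −0.11) and turned to 0.44 after rescaling. *Cxcl14*, a chemokine, rose by 1.59 (adjusted p = 2.75e-08). *Ebf3*, a transcription factor of CXCL12-abundant reticular cells, rose by 1.01 (adjusted p = 3e-05). *Vcam1*, an adhesion molecule, rose by 0.62 (adjusted p = 0.00591, ML1 0.33). *Csf1*, which sustains macrophages, rose by 0.69 (adjusted p = 0.000518). These 4 did not overlap between the groups. *Bmp4*, a bone morphogenetic protein, fell by 1.02 (adjusted p = 0.00163, HL60 −0.31), a call lost after rescaling. *Cdh2*, N-cadherin, fell by 0.50 (adjusted p = 0.000312) but turned to 0.26 after rescaling. *Adipoq*, adiponectin, was lower, at −0.52 (adjusted p = 0.0828, HL60 0.05), and was not called without any 1 of 10 of the 12 libraries (values −0.54 to −0.40), and was 0.24 after rescaling. *Angpt1*, a ligand of the TIE2 receptor (0.04, ML1 −0.09), *Grem1*, a BMP antagonist (0.29, ML1 −0.05), and *Gas6*, a ligand of AXL (0.45), were not called. After rescaling all 3 were called higher, by at least 0.81. With HL60 alone *Grem1* (0.64) and *Gas6* (1.34) were called higher, and with ML1 alone *Gas6* was called lower (−0.43). *Angpt1* turned negative without ch- replicate 528 (−0.02), late replicate 398 (−0.02) or 582 (−0.00472), and *Gas6* was called without ch- replicate 544 (0.59).

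Osteoblast genes gave 26 lower and 2 higher calls of 29 tested (96.6%; HL60 3 higher, 21 lower; ML1 2 higher, 25 lower), with a median of −1.93, and −1.16 after rescaling. Some of these genes are ones the study names for its cells, so the list is not independent of it. *Bglap* (ENSMUSG00000074483, chromosome 3, 88383501 to 88384464 on GRCm38) encodes osteocalcin, the hormone-like matrix protein of mature osteoblasts, and ranged from 14.78 to 15.33 (median 15.10) in early ch- and from 9.32 to 13.24 (median 11.40) in late. With no overlap of the groups, *Bglap* was lower, at −3.76 (SE 0.41, adjusted p = 9.1e-07). In late libraries it was 13.24, 12.94 and 12.77 with HL60 and 10.04, 9.32 and 9.63 with ML1, so that the lines did not overlap within the late group. *Bglap2* (−3.67) and *Bglap3* (−3.24) lie beside it and are near-identical copies, so reads may have been shared between these 3 genes.

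The further genes of bone matrix named in this paragraph were lower, while *Spp1*, given below, was not called. *Col1a1* (chromosome 11, 94936224 to 94953042 on GRCm38), which encodes the main collagen chain of bone, ranged from 19.83 to 20.33 (median 20.12) in early ch- and from 15.76 to 18.78 (median 17.52) in late. There was no overlap, and the difference was −2.73 (SE 0.35, adjusted p = 7.48e-06), or 6.61-fold lower. It held 7.38% to 9.48% of the summed values in ch- and 0.764% to 5.02% in late. *Col1a2*, its partner chain, fell by 2.57 (adjusted p = 2.39e-06). *Col11a2*, a fibrillar collagen chain, was lower, at −3.39 (adjusted p = 1.67e-07). *Phospho1*, a phosphatase of matrix vesicles, was lower, at −3.26 (adjusted p = 8.1e-07). *Alpl*, alkaline phosphatase (−1.93), and *Ibsp*, bone sialoprotein (−1.41), were lower without overlap. *Car3*, a carbonic anhydrase, was also lower (−3.19). Outside the list, *Prss35*, a protease-like protein (−3.85), and *Entpd3*, an ectonucleotidase (−3.30), were among the largest falls with ctrl close to ch-.

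Transcription factors and late markers of the lineage differed in size. *Sp7*, or osterix, which commits precursors to bone, ranged from 11.15 to 11.74 (median 11.33) in early ch- and from 7.55 to 10.09 (median 9.17) in late. Its groups were apart, with a difference of −2.39 (SE 0.26, adjusted p = 8.87e-07). *Runx2*, the factor upstream of it, was lower, at −0.65 (adjusted p = 9.27e-05) and turned to 0.12 after rescaling. The osteocyte gene *Dmp1* was lower, at −0.76 (adjusted p = 0.0502, HL60 0.20) but was 0.0103 after rescaling, and was not called without ch- replicate 543 (−0.59), 544 (−0.68), 546 (−0.68), late replicate 582 (−0.68) or 583 (−0.51). *Sost*, a marker of mature osteocytes, did not exceed 1.69 in any library. *Spp1*, osteopontin, was not called (0.32, adjusted p = 0.181, ML1 −0.02) but was called without late replicate 583 (0.41), with HL60 alone (0.65), after quantile normalization (0.91) and after rescaling (1.08). The genes that rose both bear on bone resorption: *Mmp13*, a collagenase, and *Tnfsf11*, the osteoclast-inducing ligand RANKL. *Mmp13* ranged from 12.04 to 12.51 (median 12.27) in early ch- and from 13.46 to 14.14 (median 13.73) in late. No ch- library reached the late libraries, and *Mmp13* rose by 1.46 (SE 0.11, adjusted p = 8.85e-09). *Tnfsf11* ranged from 6.11 to 8.14 (median 7.01) in early ch- and from 8.43 to 8.76 (median 8.49) in late. It too was separate between the groups and rose by 1.51 (SE 0.27, adjusted p = 0.000271).

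The promoter of *Bglap* is printed because this gene had the largest fall in the list and RUNX2 is known to bind such promoters. The letters ACCACA or, on the other strand, TGTGGT were looked for in the 250 bases before the start of each gene in RefSeq (GRCm38.p6), and the match is in capitals. They occurred in 4 of 16 lower osteoblast genes with an entry (25%, *Bglap*, *Runx2*, *Dmp1* and *Mepe*), in 2 of the 3 other tested genes of the list (*Spp1* and *Mmp13*) and in 15.9% of 27025 genes. *Bglap* lies on the minus strand, and the window is chr3:88384467-88384716.

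Bglap: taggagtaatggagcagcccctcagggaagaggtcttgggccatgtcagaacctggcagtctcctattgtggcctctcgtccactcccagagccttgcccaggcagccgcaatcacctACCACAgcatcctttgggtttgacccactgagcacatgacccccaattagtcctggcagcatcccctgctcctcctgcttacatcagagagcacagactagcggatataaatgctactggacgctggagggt

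Cartilage genes were mostly lower, with 23 of 25 tested called lower (92%; HL60 20 lower, ML1 24 lower), a median of −2.03, and −1.26 after rescaling. The median of ctrl minus ch- for this list was 0.83 and that of ch+ minus ch- was −2.21. *Col2a1*, the collagen of cartilage, ranged from 14.76 to 16.02 (median 15.42) in early ch- and from 11.02 to 13.60 (median 12.32) in late. All libraries separated by group, and the difference was −3.04 (SE 0.26, adjusted p = 4.66e-08). *Col10a1*, the collagen of hypertrophic cartilage, ranged from 6.84 to 9.81 (median 9.22) in early ch- and from 4.23 to 5.76 (median 4.57) in late. It was separate between groups and lower, at −3.97 (SE 0.38, adjusted p = 1.99e-07). *Acan*, the main proteoglycan (−2.90), and *Hapln1*, which links it to hyaluronan (−3.03), were lower without overlap, as was *Sox9*, the master factor of the lineage (−1.69). *Matn3* (−3.34), *Col9a3* (−3.30) and *Col11a1* (−3.11) encode further matrix proteins and fell. *Sox5*, a partner of SOX9, was not called (−0.50, adjusted p = 0.336) but was called without ch- replicate 529 (−0.88) and with ML1 alone (−0.94), and turned to 0.27 after rescaling. *Cytl1*, a cytokine-like protein, was not called either (−0.14, adjusted p = 0.894, HL60 0.69) and was positive without ch- replicate 527 (0.00992), 528 (0.02) or 546 (0.16) and after rescaling (0.63).

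Vessel-associated genes were read in a smooth muscle list and a pericyte list, and the difference between these lists was not tested. Of 18 tested smooth muscle genes 10 were lower (55.6%; HL60 8 lower, ML1 8 lower), with a median of −0.63 that turned to 0.13 after rescaling. After rescaling 7 were called higher and 1 lower. The median of ctrl minus ch- for the smooth muscle list was 0.50. That of ch+ minus ch- was −1.81, so the early ch+ libraries lay further below ch- than the late ones. *Myh11*, smooth muscle myosin, ranged from 11.53 to 12.64 (median 12.07) in early ch- and from 9.81 to 11.49 (median 11.12) in late. Its groups did not overlap, and it was lower, at −1.23 (SE 0.18, adjusted p = 3.85e-05). *Acta2*, smooth muscle actin, was lower, at −0.76 (adjusted p = 0.000837), and 0.00447 after rescaling. *Cnn1*, calponin (−1.25, ML1 −0.90), *Myocd*, a coactivator (−1.15, HL60 −0.78), and *Pln*, phospholamban (−1.09), fell too, but these 3 calls were lost after rescaling. In the pericyte list 5 of 10 tested genes were higher and 3 lower (80%; HL60 5 higher, 2 lower; ML1 6 higher, 3 lower), with a median of 0.79, and 1.56 after rescaling. After rescaling 8 of them were called higher and 1 lower. *Heyl*, a NOTCH target, ranged from 9.52 to 9.91 (median 9.86) in early ch- and from 11.75 to 12.14 (median 11.97) in late. All late libraries lay above all ch- libraries, and *Heyl* rose by 2.18 (SE 0.11, adjusted p = 4.42e-11). *Notch3*, the receptor upstream (1.05), *Steap4*, a metalloreductase (1.73), *Abcc9*, a potassium channel subunit (1.35), and *Rgs4*, a G protein regulator (1.06), rose as well. *Cspg4*, the NG2 proteoglycan, ranged from 9.64 to 10.51 (median 10.16) in early ch- and from 7.16 to 8.75 (median 8.62) in late. It was separate in the opposite direction and fell by 1.75 (SE 0.20, adjusted p = 1.63e-06). *Rgs5* was lower, at −0.51 (adjusted p = 0.00641) and turned to 0.26 after rescaling, and *Ndufa4l2* was lower (−0.72, HL60 −0.25), was not called without ch- replicate 543 (−0.59), late replicate 582 (−0.61) or 583 (−0.67), and turned to 0.05 after rescaling.

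Adipocyte genes had no common direction on the authors' normalization, whereas 8 were called higher and 0 lower after rescaling. Of 11 tested, 3 were higher and 1 lower (36.4%; HL60 2 higher, 0 lower; ML1 2 higher, 2 lower), with a median of 0.12 (0.22 with HL60, −0.07 with ML1), and 0.89 after rescaling; the lower count was 2 without ch- replicate 528 or late replicate 398. *Plin2*, a lipid droplet protein, rose by 0.81 (adjusted p = 0.00956, HL60 0.42). *Zfp423*, a factor of adipocyte precursors, rose by 0.64 (adjusted p = 0.0029). The remaining rise, *Pparg*, the master factor of fat cells (0.53, HL60 0.65, ML1 0.40), was not called without ch- replicate 528 (0.38) or late replicate 583 (0.47). *Plin4*, another lipid droplet protein, fell by 1.05 (adjusted p = 0.00928, HL60 −0.58), a call lost after rescaling.

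**Figure D2:**
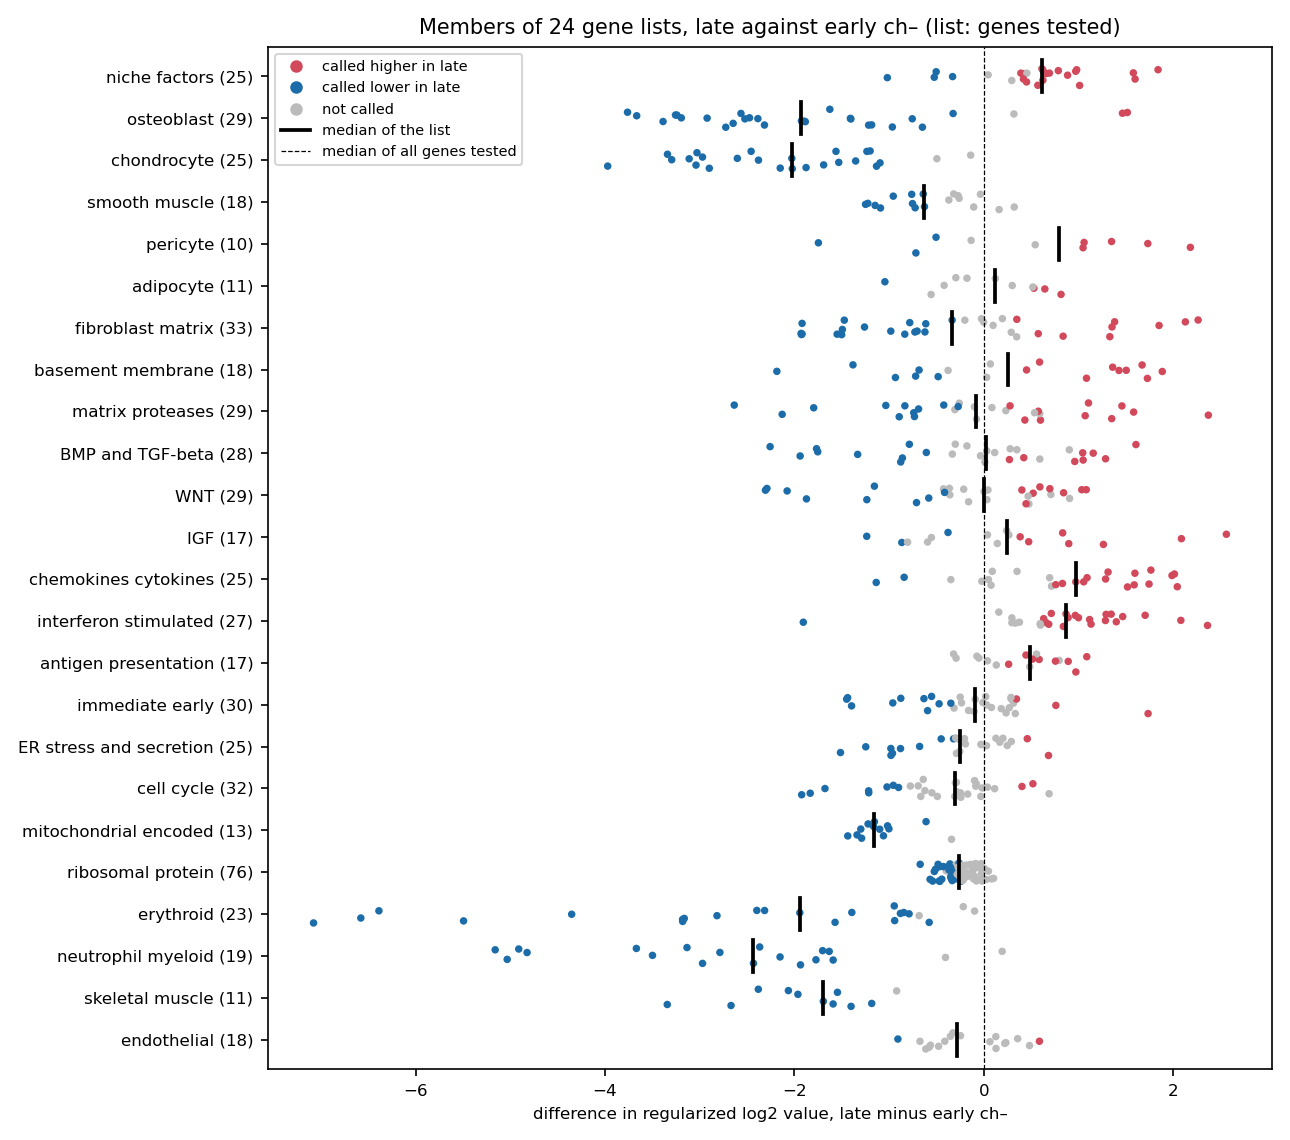
Difference in regularized log2 value, late minus early ch-, for each tested member of 24 gene lists, colored by call, with the list median as a bar and the median of all 12980 tested genes as a broken line. Osteoblast (median −1.93), cartilage (−2.03), erythroid (−1.94) and neutrophil (−2.43) medians lie to the left and stay negative after rescaling to library totals, while the medians of smooth muscle, fibroblast matrix, matrix proteases, immediate early, secretion, cell cycle, ribosomal protein and endothelial genes turn from negative to positive.

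Matrix genes outside bone did not move as a block. Of 33 tested fibroblast matrix genes 9 were higher and 17 lower (78.8%; HL60 8 higher, 8 lower; ML1 10 higher, 16 lower), with a median of −0.34 that turned to 0.43 after rescaling. *Fbn1*, fibrillin of elastic microfibrils, ranged from 11.87 to 13.01 (median 12.39) in early ch- and from 14.26 to 14.85 (median 14.56) in late. Both ranges were distinct, and it rose by 2.13 (SE 0.12, adjusted p = 1.06e-10). *Col8a1*, a short-chain collagen (2.26), *Col5a3* (1.85), *Fstl1*, follistatin-like protein (1.38), *Col3a1* (0.84), *Col6a1* (1.33) and *Col6a2* (1.35) were also higher. *Sparc*, osteonectin, ranged from 18.35 to 18.54 (median 18.45) in early ch- and from 15.67 to 17.38 (median 16.51) in late. It was lower without overlap, at −1.92 (SE 0.22, adjusted p = 1.4e-06), but after quantile normalization it was −0.25 and not called. *Dcn*, decorin, a collagen-binding proteoglycan (−1.92), *Lum*, lumican, of the same family (−1.93), and *Col5a2* (−1.93) fell as well.

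The basement membrane list gave 9 higher and 6 lower calls of 18 tested (83.3%; HL60 9 higher, 3 lower; ML1 8 higher, 7 lower), with a median of 0.26, and 1.03 after rescaling. *Col4a1*, the network-forming collagen of basement membranes, ranged from 11.10 to 11.70 (median 11.40) in early ch- and from 13.02 to 13.74 (median 13.18) in late. Its groups were separate, with a rise of 1.88 (SE 0.10, adjusted p = 9.33e-11). *Col4a2*, its partner (1.67), *Lama4* (1.72) and *Lamb1* (1.50), chains of the vascular laminins, and *Nid1*, which links laminin to collagen (1.43), rose. *Col15a1* fell by 2.19 (adjusted p = 2.93e-08). *Lama5* (−0.93), *Lamc3* (−1.38, HL60 −0.86) and *Lama2* (−0.72, HL60 −0.55) were lower, as was *Hspg2*, perlecan (−0.69), but *Lama2* and *Hspg2* turned to 0.05 and 0.08 after rescaling, and *Lama5* lost its call.

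Enzymes that cut or cross-link matrix went in both directions, with 10 higher and 11 lower of 29 tested (72.4%; HL60 6 higher, 8 lower; ML1 10 higher, 13 lower) and a median of −0.08 that turned to 0.69 after rescaling. *Mmp11*, stromelysin 3, ranged from 7.53 to 8.67 (median 7.75) in early ch- and from 9.77 to 10.94 (median 10.27) in late. There was no overlap, and it rose by 2.37 (SE 0.15, adjusted p = 6.21e-10). *Adamts4*, an aggrecanase (1.58), *Loxl1*, which cross-links elastin (1.35), and *Mmp9*, a gelatinase (1.46, HL60 0.69), rose. *Mmp16*, a membrane-bound metalloproteinase, ranged from 10.42 to 10.89 (median 10.80) in early ch- and from 6.73 to 9.27 (median 8.21) in late. It was apart in the other direction and fell by 2.64 (SE 0.27, adjusted p = 4.95e-07). *Pcolce2*, which aids procollagen processing (−2.13), *Loxl4* (−1.80) and *Serpinh1*, the collagen chaperone HSP47 (−1.04), fell, though *Serpinh1* lost its call after rescaling.

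Signaling lists were split. For BMP and TGF-beta, 8 of 28 tested genes were higher and 9 lower (60.7%; HL60 7 higher, 4 lower; ML1 9 higher, 10 lower), with a median of 0.02, and 0.79 after rescaling. *Tgfb3*, a ligand, ranged from 8.72 to 9.28 (median 9.02) in early ch- and from 10.06 to 10.88 (median 10.83) in late. The groups did not overlap, and it rose by 1.60 (SE 0.15, adjusted p = 1.96e-07). *Bmp6* (1.05), *Ltbp2*, a latent TGF-beta binding protein family member (1.15), and *Id4* (1.28) rose too. *Bambi*, a decoy receptor, ranged from 9.07 to 9.51 (median 9.19) in early ch- and from 6.20 to 7.80 (median 7.02) in late. It was separate and lower, at −2.26 (SE 0.19, adjusted p = 3.03e-08). *Bmp7*, a ligand (−1.94), *Smad9*, a signal transducer (−1.77, HL60 −0.63), and the target genes *Id2* (−1.75) and *Id1* (−1.33, HL60 −0.61) were lower.

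For WNT, 8 of 29 tested genes were higher and 9 lower (58.6%; HL60 7 higher, 7 lower; ML1 3 higher, 12 lower), with a median of 0.000972, and 0.77 after rescaling; the higher count was 5 without late replicate 397 or 399. The median was 0.28 with HL60 alone and −0.54 with ML1 alone. *Frzb*, a secreted antagonist, ranged from 5.95 to 7.49 (median 7.06) in early ch- and from 3.20 to 5.70 (median 4.70) in late. Its groups did not overlap, and it fell by 2.31 (SE 0.34, adjusted p = 3.67e-05). *Dkk1*, another antagonist (−2.08), *Rspo4*, an agonist (−2.29), and *Tcf7*, a nuclear effector (−1.87), fell. Of the 9 lower genes 2, *Rspo4* among them, had a late mean below the filter. *Lgr5*, an R-spondin receptor (1.03, HL60 1.03), *Axin2*, a feedback target (0.84, ML1 0.42), and *Fzd4*, a receptor (0.70, HL60 0.57), rose. *Sfrp2*, an antagonist, was higher by 1.08 (adjusted p = 0.0398, ML1 −0.27), was not called without ch- replicate 528 (0.81), late replicate 397 (0.90) or 399 (0.83).

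In the IGF and CCN list 7 of 17 tested genes were higher and 3 lower (58.8%; HL60 7 higher, 1 lower; ML1 5 higher, 4 lower), with a median of 0.24, and 1.01 after rescaling. *Igfbp3*, which binds IGF in serum and tissue, ranged from 8.92 to 11.18 (median 10.42) in early ch- and from 11.94 to 13.74 (median 12.20) in late. The groups were separate, and it rose by 2.08 (SE 0.31, adjusted p = 3.83e-05). *Igfbp7* (1.26), *Igf1* (0.83, ML1 0.06) and *Ccn2*, a matricellular target of TGF-beta and YAP (0.89), rose. *Stc2*, an inhibitor of the IGFBP protease (−1.24, HL60 −0.91), *Igf2* (−0.87, HL60 −0.49) and *Ccn1* (−0.38, ML1 −0.24) were lower, and *Ccn1* turned to 0.39 after rescaling while the other 2 lost their calls.

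Inflammatory mediators were mostly higher in late. Of 25 tested chemokines and cytokines 15 were higher and 2 lower (68%; HL60 12 higher, 2 lower; ML1 12 higher, 1 lower), with a median of 0.97, and 1.74 after rescaling. *Il1rn*, the natural antagonist of the interleukin 1 receptor, ranged from 9.95 to 11.60 (median 11.12) in early ch- and from 12.31 to 13.11 (median 12.69) in late. Late and ch- libraries were apart, and it rose by 1.74 (SE 0.14, adjusted p = 2.69e-08). *Cxcl9*, which draws T cells, ranged from 4.90 to 7.16 (median 5.41) in early ch- and from 7.14 to 8.51 (median 7.74) in late. It overlapped slightly and rose by 2.04 (SE 0.35, adjusted p = 0.000183). *Ccl2*, which draws monocytes, ranged from 5.88 to 8.02 (median 6.94) in early ch- and from 7.55 to 10.75 (median 8.67) in late. It overlapped as well and rose by 2.01 (SE 0.44, adjusted p = 0.00228, HL60 0.48). *Il6* (1.98), *Cxcl10* (1.76, HL60 0.63) and *Hgf*, hepatocyte growth factor (1.28, ML1 0.82), rose with overlap. *Ackr3*, a scavenger receptor for CXCL12, ranged from 8.08 to 8.81 (median 8.55) in early ch- and from 6.86 to 7.84 (median 7.34) in late. It was lower in late without overlap, at −1.14 (SE 0.18, adjusted p = 7.18e-05). *Tnfrsf11b*, the decoy receptor for RANKL, was lower, at −0.84 (adjusted p = 0.0193, ML1 −0.59), but only −0.08 and not called after rescaling. The *Il7* gene of the stromal list, which sustains lymphocyte precursors, was higher by 0.66 (adjusted p = 0.059, HL60 0.84, ML1 0.47), and was not called without ch- replicate 528 (0.38), 546 (0.60), late replicate 397 (0.62), 399 (0.60) or 582 (0.62).

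Interferon-stimulated genes gave 19 higher and 1 lower calls of 27 tested (74.1%; HL60 7 higher, 1 lower; ML1 21 higher, 1 lower), with a median of 0.87, and 1.63 after rescaling. *Zbp1*, a sensor of nucleic acids, ranged from 5.30 to 5.77 (median 5.47) in early ch- and from 6.99 to 8.59 (median 8.05) in late. No values overlapped between the groups, and it rose by 2.36 (SE 0.23, adjusted p = 2.79e-07). *Ifitm3*, a restriction factor in membranes, ranged from 10.67 to 11.27 (median 11.02) in early ch- and from 12.21 to 12.75 (median 12.41) in late. It was also separate and rose by 1.46 (SE 0.11, adjusted p = 1.2e-08). The guanylate-binding genes *Gbp2* (2.08) and *Gbp3* (1.70), the ubiquitin-like modifier *Isg15* (1.40, HL60 0.71) and *Ifit1* (1.34, HL60 0.51) rose. The exception was *Rsad2*, viperin, which ranged from 6.25 to 7.57 (median 6.50) in early ch- and from 4.05 to 5.69 (median 4.93) in late. Its groups were apart, and it was lower in late by 1.91 (SE 0.30, adjusted p = 8.44e-05). The ctrl mean of *Rsad2* was 4.62, nearer to late than to ch-, and its ch+ mean was 6.42. Genes of antigen presentation by class I molecules gave 8 higher calls of 17 tested (47.1%; HL60 5 higher, 0 lower; ML1 5 higher, 0 lower), with a median of 0.48, and 1.25 after rescaling. *Tap2*, a peptide transporter (1.08, ML1 1.09), *H2-Q4*, a class I molecule (0.97), and *Tapbp*, which loads peptides (0.89), rose. *Psmb10*, an immunoproteasome subunit (0.75, HL60 0.77, ML1 0.74), was not called without ch- replicate 528 (0.59).

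Promoters of 3 of the risen interferon genes are printed because interferon-activated factors bind a known repeat in such genes. The letters GAAA, 2 free bases and GAAA again, on either strand, were looked for in the 250 bases before each start in RefSeq (GRCm38.p6). They occurred in 7 of 15 higher interferon genes with an entry (46.7%), in 3 of 7 other tested members of the list (*Oas1a*, *Rsad2* and *Bst2*) and in 3.46% of 27025 genes. *Rsad2* is the lower call of the list. The last 120 bases before the start are given, with matches in capitals, for *Isg15* (chr4:156200819-156200938, minus strand), *Ifit1* (chr19:34640769-34640888, plus strand) and *Gbp2* (chr3:142620543-142620662, plus strand).

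Isg15: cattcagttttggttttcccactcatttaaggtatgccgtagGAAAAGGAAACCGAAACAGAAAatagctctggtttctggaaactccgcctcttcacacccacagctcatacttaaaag

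Ifit1: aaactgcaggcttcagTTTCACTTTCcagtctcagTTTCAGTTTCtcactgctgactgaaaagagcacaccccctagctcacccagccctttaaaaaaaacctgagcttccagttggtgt

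Gbp2: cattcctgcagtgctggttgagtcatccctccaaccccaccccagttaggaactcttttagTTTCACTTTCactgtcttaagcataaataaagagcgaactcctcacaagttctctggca

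Immediate early and heat shock genes, which respond within minutes to stress and handling, gave 3 higher and 10 lower calls of 30 tested (43.3%; HL60 0 higher, 16 lower; ML1 11 higher, 8 lower), with a median of −0.10 that turned to 0.67 after rescaling. The median was −0.42 with HL60 alone and 0.33 with ML1 alone. *Klf4*, a zinc finger factor, ranged from 11.16 to 11.43 (median 11.30) in early ch- and from 9.74 to 10.19 (median 9.86) in late. With no overlap of the groups, it fell by 1.40 (SE 0.10, adjusted p = 8.47e-09). *Nr4a2* (−1.45), *Atf3* (−1.44) and *Klf2* (−0.96) fell, the last a call lost after rescaling. *Fosl1*, a component of AP-1 (1.73, HL60 0.56), and *Ier5* (0.76, HL60 0.11) rose. The remaining rise, *Klf6* (0.34, HL60 −0.11), was not called without ch- replicate 543 (0.30), 544 (0.30), 546 (0.28), late replicate 581 (0.34), 582 (0.26) or 583 (0.27). *Egr1* was not called (0.08, adjusted p = 0.744), but was called lower with HL60 alone (−0.30) and higher with ML1 alone (0.46), after quantile normalization (0.71) and after rescaling (0.85).

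In the p53 list 2 of 21 tested genes were higher and 2 lower (19%; HL60 1 higher, 1 lower; ML1 3 higher, 3 lower), with a median of 0.23, and 1.00 after rescaling. *Plk2*, a kinase of the p53 response, ranged from 9.07 to 10.08 (median 9.47) in early ch- and from 6.33 to 8.00 (median 7.15) in late. It was separate between the groups and fell by 2.36 (SE 0.18, adjusted p = 1.04e-08). *Gadd45a* (0.67, HL60 0.61) and *Trp53* itself (0.46, ML1 0.41) rose, and the higher count was 4 without ch- replicate 527. *Cdkn1a*, the cell cycle inhibitor p21 (−0.50, HL60 −0.20), was not called without ch- replicate 543 (−0.36), late replicate 399 (−0.40) or 581 (−0.45), which left 1 lower gene, and turned to 0.27 after rescaling. Of 18 tested oxidative stress genes 7 were higher and 1 lower (44.4%; HL60 3 higher, 0 lower; ML1 5 higher, 1 lower), with a median of 0.18, and 0.95 after rescaling; the higher count was 4 without late replicate 583. *Gsr*, glutathione reductase, ranged from 6.63 to 7.54 (median 7.35) in early ch- and from 8.64 to 9.15 (median 9.03) in late. Its groups did not overlap, and it rose by 1.69 (SE 0.16, adjusted p = 1.61e-07). *Srxn1*, sulfiredoxin (0.97, HL60 0.60), and *Sod3*, extracellular superoxide dismutase (0.81, ML1 0.36), rose. *Gclc*, of glutathione synthesis (0.75, HL60 0.44), was not called without late replicate 399 (0.61) or 583 (0.68). *Gpx1*, glutathione peroxidase, was lower, at −0.57 (adjusted p = 0.00236, HL60 −0.48) and turned to 0.19 after rescaling.

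Genes of the endoplasmic reticulum and secretion gave 2 higher and 9 lower calls of 25 tested (44%; HL60 1 higher, 6 lower; ML1 4 higher, 8 lower), with a median of −0.26 that turned to 0.51 after rescaling. *Plod2*, which hydroxylates collagen lysines, ranged from 12.05 to 12.43 (median 12.27) in early ch- and from 10.12 to 11.28 (median 10.82) in late. There was no overlap, and it fell by 1.51 (SE 0.17, adjusted p = 1.18e-06). *Creb3l1*, a factor of collagen secretion (−1.25), *P4ha1*, prolyl hydroxylase (−0.98), and *Kdelr3*, a retrieval receptor (−0.98), fell without overlap, though *P4ha1* and *Kdelr3* lost their calls after rescaling. *Atf5* (0.68, HL60 0.25) was higher but not called without ch- replicate 528 (0.65), 543 (0.46), 544 (0.58), late replicate 399 (0.69), 581 (0.60) or 583 (0.54). *Pdia6* (0.46, HL60 0.42) was higher but not called without ch- replicate 528 (0.38), late replicate 397 (0.39) or 399 (0.40). The higher count was therefore 0 without ch- replicate 528 or late replicate 399 and 1 without ch- replicate 543 or 544 or late replicate 397, 581 or 583.

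Metabolic lists had no common direction on the authors' normalization. After rescaling, glycolysis and hypoxia genes gave 21 higher and 0 lower calls. Cholesterol and fatty acid genes then gave 21 and 1, and clock genes 13 and 0. Of 26 tested glycolysis and hypoxia genes 4 were higher and 4 lower (30.8%; HL60 2 higher, 1 lower; ML1 5 higher, 3 lower), with a median of 0.04, and 0.81 after rescaling. *Epas1*, the hypoxia factor HIF2, ranged from 12.16 to 12.99 (median 12.67) in early ch- and from 13.51 to 14.25 (median 13.83) in late. All libraries separated by group, and it rose by 1.24 (SE 0.11, adjusted p = 4.04e-08). *Pfkfb3* (0.97) and *Pfkp* (0.90, HL60 0.51), regulators of glycolytic flux, rose. *Adm*, adrenomedullin (0.71, HL60 0.07), was higher but not called without ch- replicate 529 (0.71), 543 (0.64), 544 (0.61), 546 (0.67), late replicate 581 (0.63), 582 (0.71) or 583 (0.58). *Pdk1* (−1.01, HL60 −0.85) and *Ndrg1* (−0.97), both hypoxia targets, and *Pkm*, pyruvate kinase (−0.57, HL60 −0.45), were lower, and *Pkm* turned to 0.20 after rescaling while *Pdk1* and *Ndrg1* lost their calls. *Hif1a* (−0.30, HL60 −0.26, ML1 −0.33) was lower, turned to 0.47 after rescaling, and was not called without ch- replicate 529 (−0.25), 544 (−0.28) or late replicate 581 (−0.28).

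Of 28 tested cholesterol and fatty acid genes 1 was higher and 4 lower (17.9%; HL60 1 higher, 4 lower; ML1 5 higher, 4 lower), with a median of 0.14, and 0.91 after rescaling. *Abca1*, the cholesterol exporter, ranged from 9.68 to 10.38 (median 10.06) in early ch- and from 7.67 to 9.49 (median 8.66) in late. It was separate and fell by 1.41 (SE 0.21, adjusted p = 4.8e-05). *Scd1* (−0.86) and *Scd2* (−0.73), fatty acid desaturases, and *Insig1*, a regulator of sterol synthesis (−0.56, ML1 −0.55), were lower, though after rescaling *Scd2* and *Insig1* turned to 0.04 and 0.21 and *Scd1*, at −0.10, lost its call. *Elovl6*, an elongase, was higher (0.78, ML1 0.66), and the higher count was 3 without ch- replicate 528 or late replicate 398 and 2 without ch- replicate 527, 529 or 546 or late replicate 397. Of 17 tested clock genes 2 were higher and 2 lower (23.5%; HL60 1 higher, 1 lower; ML1 2 higher, 1 lower), with a median of 0.22, and 0.99 after rescaling. *Nr1d1*, a clock repressor, rose by 1.14 (adjusted p = 0.000202). *Nr1d2*, its relative (0.48, HL60 0.13), was not called without any 1 of 8 of the 12 libraries (values 0.39 to 0.50), which left 1 higher gene. *Bhlhe40* was lower, at −0.68 (adjusted p = 8.15e-05) and turned to 0.09 after rescaling. *Bhlhe41* (−0.51, HL60 −0.70, ML1 −0.31) turned to 0.26 and was not called without any 1 of 8 of the 12 libraries (values −0.54 to −0.43). The lower count was 1 without ch- replicate 527, 528 or 543 or late replicate 397, 398, 581 or 583.

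Of 32 tested cell cycle genes 2 were higher and 8 lower (31.2%; HL60 6 lower, ML1 8 lower), with a median of −0.30 that turned to 0.46 after rescaling. *Mki67*, a marker of cycling cells, ranged from 9.18 to 10.03 (median 9.79) in early ch- and from 7.10 to 8.48 (median 7.90) in late. Both ranges were distinct, and it fell by 1.83 (SE 0.22, adjusted p = 2.55e-06). *Ccna2*, cyclin A (−1.92), *Top2a*, topoisomerase (−1.68), and *Ube2c*, a ubiquitin enzyme of mitosis (−1.22, HL60 −1.04), fell, though *Ube2c* lost its call after rescaling, and 2 of the 8 lower genes had a late mean below the filter. *Mcm4*, of the replication helicase (0.52, HL60 0.42, ML1 0.62), was higher but not called without ch- replicate 543 (0.40) or late replicate 581 (0.50). *Ccnd3*, cyclin D3 (0.40, HL60 0.39, ML1 0.42), was higher but not called without any 1 of 9 of the 12 libraries (values 0.30 to 0.44). The higher count was 0 without late replicate 581 and 1 without ch- replicate 528, 529 or 543 or late replicate 397, 398, 399, 582 or 583. Most RNA of replication-dependent histone genes lacks a poly(A) tail. These genes gave 8 lower calls of 18 tested (44.4%; HL60 2 lower, ML1 7 lower), with a median of −0.53 that turned to 0.24 after rescaling, and 5 without late replicate 583. *Hist1h2bc* (−1.24), *Hist1h1b* (−1.22), *Hist1h2bl* (−1.16, HL60 −0.39) and *Hist1h2bk* (−1.01, HL60 −0.57) were among them, and of these only *Hist1h2bc* kept its call after rescaling.

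Genes of the mitochondrial genome were lower as a group, with 12 of 13 tested called lower (92.3%; HL60 12 lower, ML1 12 lower), a median of −1.16, and −0.39 after rescaling. The median of ctrl minus ch- was −0.94, so ctrl lay nearer to late for this list. *mt-Co1*, a subunit of cytochrome oxidase, ranged from 15.54 to 16.38 (median 16.15) in early ch- and from 14.45 to 15.21 (median 14.71) in late. The groups did not overlap, and the difference was −1.34 (SE 0.15, adjusted p = 1.25e-06). *mt-Co3* (−1.44), *mt-Nd5* (−1.30) and *mt-Nd4* (−1.29) encode further respiratory subunits and fell. *mt-Nd3* was not called (−0.34, adjusted p = 0.638), ran from −0.62 to −0.10 with 1 library left out and turned to 0.42 after rescaling. Nuclear genes of the same complexes gave 5 lower calls of 75 tested (6.67%; HL60 1 lower, ML1 4 lower), with a median of −0.13 that turned to 0.63 after rescaling. *Atp5e* (−0.74, HL60 −0.74, ML1 −0.74), *Uqcr10* (−0.61, HL60 −0.75, ML1 −0.47), *Cox7b* (−0.46, ML1 −0.20) and *Cox6a1* (−0.41, HL60 −0.35, ML1 −0.48) were among these, all positive after rescaling, and the count was 8 without ch- replicate 529. Cytosolic ribosomal protein genes gave 27 lower calls of 76 tested (35.5%; HL60 13 lower, ML1 18 lower), with a median of −0.26 that turned to 0.50 after rescaling. *Rpl41* (−0.67), *Rpl27a* (−0.57, HL60 −0.47) and *Rps25* (−0.54) had the largest falls, and these 3 also turned positive. After rescaling 70 ribosomal protein genes were called higher and 0 lower. For the nuclear genes of the respiratory complexes these counts were 63 and 0.

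Non-coding and marker features complete the lists. Of 12 tested abundant non-coding RNA features 4 were lower (33.3%; HL60 6 lower, ML1 4 lower), with a median of −0.60 that turned to 0.17 after rescaling. *CT010467.1* ranged from 21.85 to 22.44 (median 22.17) in early ch- and from 20.22 to 21.17 (median 20.84) in late. Its groups did not overlap, and it was lower, at −1.39 (SE 0.27, adjusted p = 0.000599), but quantile normalization gave it the same value in every library, and it was then not called. *Rn7s2*, a signal recognition particle RNA (−1.44, HL60 −1.03), and *Lars2*, which overlaps ribosomal-like sequence (−1.08), were lower. *Gas5* (−0.39, ML1 −0.23) was lower, turned to 0.38 after rescaling, and was not called without ch- replicate 529 (−0.33), late replicate 397 (−0.32) or 583 (−0.35). *AY036118* reached 15.30 in ch- replicate 544 alone and otherwise stayed between 0.94 and 1.87 in these 12 libraries, while ctrl held 17.25, 15.43 and 19.01. It was not called (−2.73, adjusted p = 0.255) but was called without ch- replicate 544 (−0.45). *Xist*, the RNA of the inactive X chromosome, ranged from 13.68 to 13.95 (median 13.87) in early ch- and from 12.89 to 14.13 (median 13.43) in late. The groups overlapped, and its lower value in late (−0.37, adjusted p = 0.0855) was not called without ch- replicate 527 (−0.31), 528 (−0.33), 529 (−0.32), late replicate 397 (−0.37), 398 (−0.27), 399 (−0.33) or 583 (−0.34), was 0.04 with ML1 alone and turned to 0.40 after rescaling. The Y-linked genes *Ddx3y*, *Eif2s3y*, *Kdm5d* and *Uty* did not exceed 2.62 in any library. Among 3 tested genes of the sort gate, *Ptprc* was the lower call (33.3%; HL60 0 lower, ML1 2 lower), and the count was 2 without ch- replicate 527 or 528 or late replicate 399.

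The leukemia lines differed in how far the late cells moved. The difference between late and ch- itself differed between ML1 and HL60 for 294 genes, or 2.27% of those tested, and was more negative with ML1 for 216 of them. Without a mean-variance trend in the model the count was 145, of which 122 were more negative with ML1. Of the 294, 147 were lower in late with each line and more so with ML1, 37 were higher with each line, and 110 had opposite signs. The stage effect of the 3300 called genes had the same sign in each line for 3270. These genes were called on both lines together, which favors a shared sign, so this count does not measure agreement between the lines. Osteoblast genes held 22 of the 294 differences between lines among 29 tested. Their median stage effect was −1.14 with HL60 and −2.88 with ML1. By adjusted p, *Bglap* came first with an interaction of −3.49 (adjusted p = 9.57e-09), followed by *Bglap2* (−3.33), *Serpinf1*, an antiangiogenic serpin (−2.23), *Col11a1* (−2.27) and *Car3* (−2.59). *Serpinf1* ranged from 13.92 to 14.20 (median 14.07) in early ch- and from 10.73 to 13.16 (median 11.88) in late. It did not overlap between the groups and was lower, at −2.13 (SE 0.27, adjusted p = 5.91e-06).

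**Figure D3:**
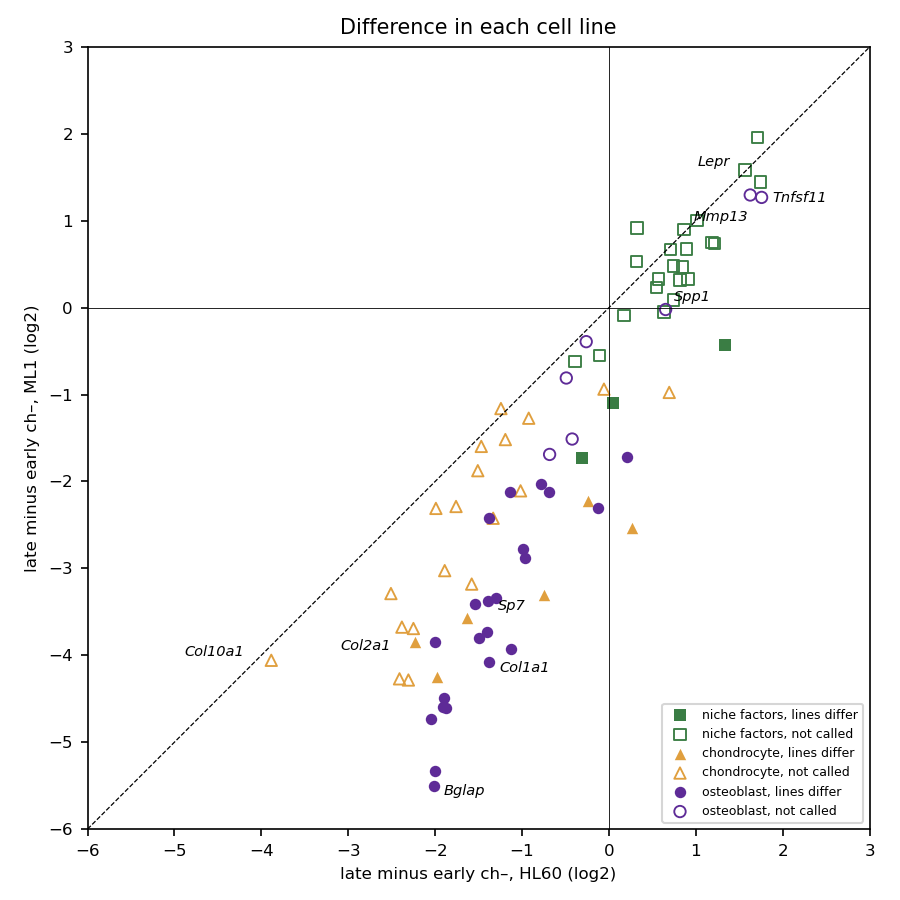
Difference between late and early ch- on the regularized log2 scale with ML1 against that with HL60, for each tested niche factor, cartilage and osteoblast gene, filled where the lines differed. Most osteoblast members lie below the diagonal, with medians of −1.14 in HL60 and −2.88 in ML1, and the list median stays negative after rescaling to library totals.

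Of the 5 genes with a positive interaction and the smallest adjusted p, 3 belonged to the heat shock response. *Hsph1*, a chaperone, was 8.42, 8.29 and 9.18 in late HL60, 10.66, 10.75 and 11.78 in late ML1, 9.69, 10.20 and 10.31 in ch- HL60 and 10.07, 9.98 and 8.90 in ch- ML1. Without overlap within either line, it was lower in late with HL60 and higher with ML1, with an interaction of 2.85 (adjusted p = 0.000414). *Hspb1*, a small heat shock protein, was 9.06, 9.19 and 9.21 in late HL60, 10.63, 10.28 and 11.56 in late ML1, 9.50, 10.13 and 9.80 in ch- HL60 and 8.87, 9.48 and 8.26 in ch- ML1. It likewise differed in opposite directions without overlap within a line, with an interaction of 2.61 (adjusted p = 0.000437). *Hsp90aa1* (1.82) and the unnamed gene *Gm26825* (1.16) were also among the 5. *Ccl2* differed by more, 3.05 (adjusted p = 0.00294), with a larger adjusted p, and *Gas6* by −1.77 (adjusted p = 1.53e-05). The late ML1 libraries are those whose treatment field does not match their title, and whether the line, the labelling or another difference between these libraries underlies the interaction was not tested.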

How the data were processed

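RNA from 21 libraries of sorted Nes low mouse stromal cells was measured by sequencing after amplification. Per the labels, the authors aligned reads to mm10 with STAR 2.5.1b, counted them with RSEM 1.2.29 and deposited regularized log2 values from DESeq2 1.10.1. The values ran from −2.33 to 22.44, as log2 values do. In their methods the authors name another scale and DESeq2 version, so the version behind the file is uncertain. They state a typical sequencing yield, but the read depth of each library is unknown.

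From these values, late and early ch- libraries were compared with limma 3.58.1 in R 4.3.3, with the leukemia line as a term, a mean-variance trend and Benjamini-Hochberg adjustment over all 12980 tested genes. An interaction term tested whether the lines differed. Totals were compared with an exact permutation test. The scripts were tested on simulated data. Python 3.11.15, pandas 2.3.3, numpy 2.4.6 and matplotlib 3.10.9 made the tables and figures. Promoters came from the RefSeq annotation of GRCm38.p6. Alternatives varied the filter, scaling, line term, libraries, variance estimate, weights and thresholds, and left out each library in turn.

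The libraries were taken by title, but the gene lists and their members were chosen with earlier results of these data known. Genes were named by a rule: the 10 largest non-overlapping called differences in each direction, the same among genes whose ctrl mean lay within 1 of ch-, up to 4 called members in each direction per list, the 5 smallest adjusted p in each direction of the interaction, and *Nes*, *Pecam1*, *Ptprc*, *Cxcl12*, *Kitl* and *Lepr*. Members outside that ranking were chosen after their values were seen, because they define a cell type or describe a list; they include *Vcam1*, *Csf1*, *Angpt1*, *Grem1*, *Gas6*, *Il7*, *Sp7*, *Runx2*, *Alpl*, *Ibsp*, *Col1a1*, *Col1a2*, *Dmp1*, *Spp1*, *Col2a1*, *Acan*, *Sox9*, *Hapln1*, *Sox5*, *Cytl1*, *Acta2*, *Notch3*, *Col3a1*, *Col6a1*, *Col6a2*, *Nid1*, *Hspg2*, *Id1*, *Igf1*, *Hgf*, *Il1rn*, *Isg15*, *Ifit1*, *Egr1*, *mt-Nd3*, *AY036118*, *Alas2*, *Hemgn*, *Lyz2*, *Itgam*, *Chil3*, *Ltf* and *Pax7*, as well as each marker quoted below the filter. Some results for single genes are not reported here. The ch+ and ctrl libraries entered no test of the comparison except 2 alternatives.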

Additional observations from a re-analysis of the deposited data

Results flagged for a closer look

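Among 498 groups of 6 libraries tested for the reported genes, 32 held a library whose gap to its nearest neighbor was large against the range of the group (Dixon's test). Chance marks about 1 in 20 groups. In ch- ML1 replicate 546 this was *C1qtnf5* at 5.69, *Pln* at 6.99, *Id2* at 7.06, *Ltf* at 7.50 and *Rgs4* at 8.83. Late HL60 replicate 397 stood apart in *Ngp* at 4.19 and *Tcf7* at 7.83. The ch- ML1 replicate 543 library was marked for *Slc4a1* at 6.43, *Gsr* at 6.63, *Cdkn1a* at 12.45 and *Insig1* at 8.59. In ch- HL60 replicate 528 this was *Kitl* at 9.71, *Mmp9* at 6.03, *Igf1* at 10.27, *Il7* at 6.58 and *Map2* at 6.76. The ch- HL60 replicate 529 library stood apart in *Cytl1* at 3.86. Late ML1 replicate 582 was marked for *Myocd* at 4.59, *Pln* at 5.04, *Cspg4* at 7.16, *Lama5* at 6.37 and *Alas2* at 3.81. In ch- HL60 replicate 527 this was *Zfp423* at 8.35, *Col5a2* at 14.15 and *Rn7s2* at 5.44. Late HL60 replicate 399 stood apart in *Fstl1* at 14.29 and *Col3a1* at 13.68. Late HL60 replicate 398 was marked for *Igfbp3* at 13.74 and *Pdia6* at 9.06. In ch- ML1 replicate 544 this was *AY036118* at 15.30. Late ML1 replicate 583 stood apart in *Itgam* at 4.50. Late ML1 replicate 581 was marked for *Insig1* at 8.07.

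The other results were marked because the difference between late and ch- differed between the leukemia lines by an interaction test in limma, at an adjusted p under 0.1. They number 51, given as the difference with ML1 minus that with HL60. The difference was more negative with ML1 for *Bglap* (−3.49), *Bglap2* (−3.33), *Bglap3* (−2.74), *Col1a1* (−2.70), *Sfrp2* (−2.69), *Col11a2* (−2.69), *Phospho1* (−2.68), *Car3* (−2.59), *Entpd3* (−2.53), *Prss35* (−2.39), *Col1a2* (−2.33), *Col11a1* (−2.27), *Smad9* (−2.27), *Serpinf1* (−2.23), *Mmp16* (−2.14), *Sp7* (−1.99), *Acp5* (−1.93), *Dmp1* (−1.92) and *Alpl* (−1.91). Smaller values of the same sign were those of *Bmp7* (−1.81), *Igfbp3* (−1.78), *Gas6* (−1.77), *Dcn* (−1.68), *Col2a1* (−1.61), *Sparc* (−1.53), *Igf1* (−1.53), *Ibsp* (−1.43), *Bmp4* (−1.42), *Abca1* (−1.39), *Lars2* (−1.32), *Plod2* (−1.27), *Lum* (−1.22), *Loxl4* (−1.21), *Col5a2* (−1.15), *Adipoq* (−1.15), *Bambi* (−1.11) and *Sod3* (−0.91). It was more positive with ML1 for *Ccl2* (3.05), *Hsph1* (2.85), *Hspb1* (2.61), *Fosl1* (2.34), *Hsp90aa1* (1.82), *Mmp9* (1.53), *Isg15* (1.37), *Adamts4* (1.37), *Ier5* (1.30), *Gm26825* (1.16), *Klf6* (0.91), *Xist* (0.82), *Col6a1* (0.77) and *Egr1* (0.76). With 1 library left out, the calls of *Adipoq*, *Col6a1*, *Loxl4*, *Mmp9*, *Bambi*, *Bmp7*, *Igfbp3*, *Isg15*, *Fosl1*, *Sod3*, *Xist* and *Acp5* were lost at least once. No explanation was tested for either set.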

How the results depend on the processing

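The count of 3300 called genes stayed within 1.5 times under most alternatives, at 2978 with a mean of at least 5, 3343 after quantile normalization, 3360 after centering, 3114 without the line term, 3048 with 18 libraries, 2920 with 21, 3100 without a trend, 3276 with robust estimation, 3345 with array weights, 2592 with ML1 alone and 2570 at an adjusted p under 0.05. Without a filter it was 5296, with 3797 lower. Rescaling to the mean library total gave 10433, with 9932 higher and 501 lower. HL60 alone gave 1851 (870 higher, 981 lower), with fewer libraries. Requiring a difference of at least 1 gave 1143 (428 higher, 715 lower). Leaving out 1 library gave 2789 to 3245 (higher 1251 to 1515, lower 1538 to 1730). The 294 genes that differed between the lines were 337 with a mean of at least 5, 284 after quantile normalization, 145 without a trend and 235 to 325 with 1 library left out. The difference in summed values of −5.61 was −2.70 without its largest feature and −5.88 to −5.39 with 1 library left out.

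Of 245 gene differences reported, 233 were called. Rescaling reversed *Adipoq* (0.24), *Cdh2* (0.26), *Pdgfra* (0.44), *Runx2* (0.12), *Sox5* (0.27), *Cytl1* (0.63), *Acta2* (0.00447), *Rgs5* (0.26), *Hspg2* (0.0821), *Gpx1* (0.19), *Scd2* (0.0399), *Bhlhe40* (0.0906), *mt-Nd3* (0.42), *Pecam1* (0.0916), *Nes* (0.75), *Xist* (0.40), *Dmp1* (0.0103), *Cdkn1a* (0.27), *Bhlhe41* (0.26), *Ndufa4l2* (0.0486), *Lama2* (0.046), *Ccn1* (0.39), *Pkm* (0.20), *Hif1a* (0.47), *Insig1* (0.21), *Atp5e* (0.027), *Uqcr10* (0.16), *Cox7b* (0.31), *Cox6a1* (0.35), *Rpl41* (0.0939), *Rpl27a* (0.20), *Rps25* (0.23), *Nfatc1* (0.12), *Map2* (0.11) and *Gas5* (0.38). Of these *Cdh2*, *Pdgfra*, *Rgs5*, *Nes*, *Xist*, *Ccn1*, *Hif1a*, *Cox6a1* and *Gas5* were called in the new direction. Rescaling also ended the calls of *Bmp4*, *Cnn1*, *Myocd*, *Pln*, *Plin4*, *Lama5*, *Serpinh1*, *Stc2*, *Igf2*, *Tnfrsf11b*, *Klf2*, *P4ha1*, *Kdelr3*, *Pdk1*, *Ndrg1*, *Scd1*, *Hist1h1b*, *Acp5*, *Stab2*, *Ube2c*, *Hist1h2bl* and *Hist1h2bk*. Quantile normalization ended those of *Sparc*, *CT010467.1*, *Xist*, *Klf6*, *Bhlhe41*, *Acp5* and *Map2*. Quantile normalization reversed *Nes* (0.00546), centering *Nes* (0.0129) and array weights *Angpt1* (−0.0165). HL60 alone reversed *Adipoq* (0.0497), *Cytl1* (0.69), *Egr1* (−0.30), *Dmp1* (0.20), *Klf6* (−0.11) and *Acp5* (0.11), and 53 further genes lost their call with these 6 libraries. ML1 alone reversed *Angpt1* (−0.0875), *Grem1* (−0.0485), *Gas6* (−0.43), *Spp1* (−0.0208), *Nes* (0.32), *Cd14* (−0.19), *Xist* (0.0409) and *Sfrp2* (−0.27), and 29 lost their call. Calls were gained by *Angpt1*, *Grem1*, *Gas6*, *Spp1*, *Egr1* and *Cd14* after rescaling, by *Spp1* and *Egr1* after quantile normalization, by *Grem1*, *Gas6* and *Spp1* with HL60 alone, by *Sox5*, *Egr1* and *Pecam1* with ML1 alone, and by *Pecam1* with a mean of at least 5, with 18 or 21 libraries and without a trend. Calls lost numbered 16 without a trend, 14 without a filter, 8 with 21 libraries, 6 with 18, 6 without the line term, 5 with robust estimation, 5 with array weights and 3 after centering. With 1 library left out, values ran for *Cytl1* from −0.73 to 0.16, for *Nes* from −0.13 to 0.0797, for *Angpt1* from −0.0246 to 0.13, for *mt-Nd3* from −0.62 to −0.0981, for *Egr1* from 0.00883 to 0.14 and for *Grem1* from 0.15 to 0.37. A total of 24 calls were lost without at least 1 library, namely *Kitl*, *Adipoq*, *Xist*, *Il7*, *Dmp1*, *Pparg*, *Sfrp2*, *Psmb10*, *Klf6*, *Cdkn1a*, *Gclc*, *Atf5*, *Pdia6*, *Adm*, *Nr1d2*, *Bhlhe41*, *Mcm4*, *Ccnd3*, *Acp5*, *Stab2*, *Ndufa4l2*, *Hif1a*, *Map2* and *Gas5*. The cause was not tested.

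The pseudocount alternative did not apply because the values are already log2. No paired analysis was possible because the groups share no replicate numbers. Low values are shrunken on this scale, and with 6 libraries per group small differences can be missed. Stage was not separable from any date of sorting or sequencing. The late ML1 libraries carry a treatment field that differs from their title.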
